A study of Homo sapiens with 6 samples.

Results

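Respiratory complex I, NADH:ubiquinone oxidoreductase, is assembled from nuclear genes that mostly carry symbols starting with NDUF and from 7 genes of the mitochondrial genome. The NDUF genes of the deposited long-read table were examined here in the human lung carcinoma line Calu-6 after knockdown of the TERT Delta 2–4 splice variant. All table rows with a gene symbol starting in NDUF were taken, apart from symbols with a hyphen and pseudogenes ending in P and a number, and their counts were summed per gene identifier. This gave 46 of the 10072 genes in the table: 15 NDUFA genes (with NDUFAB1 and NDUFA4L2), 11 NDUFB genes, 2 NDUFC genes, 11 NDUFS or NDUFV genes and 7 NDUFAF assembly factors.

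The peripheral arm reaches into the mitochondrial matrix, where NDUFV1 takes electrons from NADH. Iron-sulfur clusters, among them clusters in the NDUFS1, NDUFS8 and NDUFS7 proteins, carry the electrons to ubiquinone. The other arm lies in the inner membrane, where the mitochondrially encoded ND subunits pump protons. NDUFA, NDUFB and NDUFC proteins are mostly accessory subunits that surround these cores, and NDUFAF proteins help the complex assemble without staying in it. By its place in the enzyme, a subunit belongs to the N module (NADH oxidation), the Q module (ubiquinone reduction), or the proximal or distal part of the membrane arm.

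Both groups were Calu-6 cells of wild-type genotype per the labels, transfected for 48 h with 10 nM siRNA. The siControl group received a non-silencing siRNA and the siDelta2-4 group an siRNA against the junction of TERT exons 1 and 5, with 3 libraries in each. The count columns also carried the study's word for cells with an empty vector, and this difference from the labels was not resolved. Libraries are named here by the number in their column. The labels did not say whether they came from separate cultures, although the study calls them biological replicates, so p-values measure only the spread between these libraries. TERT was not analysed here, so the knockdown was not checked. The libraries held 1037468 to 1309241 counts. CPM are counts in each 1000000 of the library total, and for single genes below of the TMM-scaled total. Of the marker lists, 0 of 5 lung epithelial markers were counted. The 5 of 6 epithelial markers counted (with CDH1 at 0) summed to 259 to 297 CPM in siControl and 275 to 347 in siDelta2-4. Nearly all of this was KRT8 (824 counts over all libraries) and KRT18 (1124), with KRT7 at 41, EPCAM at 13 and KRT19 at 1. The 2 of 6 mesenchymal markers counted, VIM (987) and FN1 (2), summed to 123 to 136 CPM in siControl and 153 to 175 in siDelta2-4. The 2 of 4 blood cell markers counted summed to 0.928 to 1.93 and 2.53 to 3.06.

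The siControl library 3 stood apart from the other libraries of its group. Across the 3888 genes tested, the Spearman correlation between a library's deviation from the mean and transcript length was -0.31 and -0.32 in siControl libraries 1 and 2, 0.12 in siControl library 3, and 0.14 to 0.36 in the siDelta2-4 libraries. Genes are not independent replicates, and these correlations describe the libraries only. Values without it are given where leaving it out changed the overlap of a family share or the call of a gene described library by library.

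NDUF genes took 0.970% ± 0.0283 (SD, n = 3) of the counts in siControl and 0.944% ± 0.0189 (n = 3) in siDelta2-4, and the groups overlapped. The NDUFA family held 0.426% ± 0.0127 against 0.426% ± 0.00701, the NDUFB family 0.272% ± 0.0108 against 0.264% ± 0.00562, and the NDUFS and NDUFV genes 0.149% ± 0.00835 against 0.141% ± 0.00555. The NDUFC pair held 0.0855% ± 0.00618 against 0.0771% ± 0.00266, and the assembly factors 0.0366% ± 0.00190 against 0.0365% ± 0.000861. In each of these families, with NDUFA4 kept in NDUFA, the range of the siControl libraries overlapped that of the siDelta2-4 libraries. No difference in the shares so defined was detectable beyond the spread between all libraries. For NDUFA and for all NDUF genes this overlap depended on NDUFA4 (9226 counts in all), a gene now assigned to complex IV. With NDUFA4 taken out of these shares, every siDelta2-4 library lay below every siControl library, a difference that was not tested. Without siControl library 3 the groups no longer overlapped for all NDUF genes (0.972% to 0.997% against 0.927% to 0.964%), for NDUFB genes (0.276% to 0.280% against 0.257% to 0.268%) and for NDUFC genes (0.0888% to 0.0893% against 0.0740% to 0.0787%). The other families still overlapped without it. In bulk RNA, fewer cells of a kind and less RNA per cell cannot be told apart. Counts came from 176 transcript models of NDUF genes, of which 151 were annotated and held 91.0% of the NDUF counts, beside 45.3% over the whole table. NDUFS8 was counted on unannotated models alone, and NDUFC1 had 2.22% of its counts on annotated ones. In the whole set of NDUF models 21 had 0 counts in siControl (36 counts in all) and 0 had none in siDelta2-4. Every one of the 25 unannotated models had at least 5 counts in each siDelta2-4 library, while 18 had that in each siControl library. Unannotated models were kept only where 3 samples each had 5 or more reads, so a model could enter through the siDelta2-4 libraries alone. These counts of models are given without the same counts over the whole table, and no difference between the groups is drawn from them.

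Of the 46 genes, 40 passed the filter on low counts. The 6 below it were NDUFS1 (6 counts over all libraries), which encodes the largest iron-sulfur subunit, the assembly factors NDUFAF1 (9), NDUFAF6 (11), NDUFAF7 (23) and NDUFAF5 (46), and NDUFA4L2 (11). NDUFS1 had 0, 0 and 1 counts in the siControl libraries and 3, 2 and 0 in the siDelta2-4 libraries. A core subunit of the N module was therefore not measurable in these libraries, and the cause was not tested.

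By mean CPM over the 6 libraries the levels of the 40 genes ran from 10.8 (NDUFA3) to 1375 (NDUFA4). NDUFA4, first described in complex I and now assigned to complex IV, was followed by NDUFA13 (681 CPM), NDUFC2 (623), NDUFS5 (516) and NDUFA12 (473). Core subunits were spread over the lower and middle part of this order, from NDUFV1 at 17.7 CPM and NDUFS3 at 28.8 to NDUFV2 at 129, NDUFS7 at 171 and NDUFS8 at 248. Per kilobase of counted model the order changed, with NDUFA13 first at 1120 CPM per kb, then NDUFA1 at 1066 and NDUFS5 at 1003, while NDUFA4 ranked 6 at 681 CPM per kb. In the siControl libraries NDUFA4 (1193 to 1449 CPM) lay clear of NDUFA13 (687 to 750 CPM), whereas NDUFA13 and NDUFC2 (580 to 726 CPM) overlapped. NDUFS5 (470 to 573 CPM) and NDUFA12 (456 to 495 CPM) overlapped too, so these neighbours in the order were not separated beyond their spread.

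**Figure D1:**
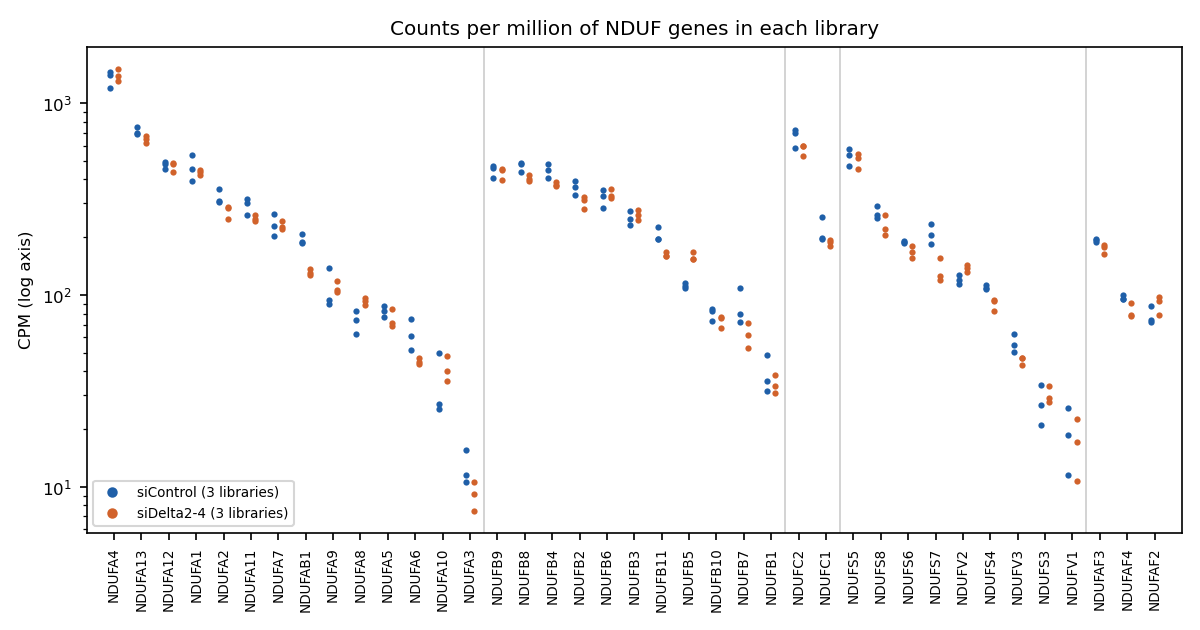
CPM on TMM-scaled totals (log axis) for 39 of the 40 NDUF genes tested, each point 1 library, siControl in blue and siDelta2-4 in orange, with grey lines between the NDUFA, NDUFB, NDUFC, NDUFS/NDUFV and NDUFAF families. Levels run from 10.8 CPM on average for NDUFA3 to 1375 CPM on average for NDUFA4, and many genes that neighbour each other in level overlap.

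The comparison of siDelta2-4 with siControl asks which NDUF transcripts changed with the knockdown. NDUFS7, NDUFAB1, NDUFB7 and NDUFB11 were lower in siDelta2-4 and NDUFB5 was higher, at an adjusted p under 0.1 in an edgeR quasi-likelihood test across all genes. These 5 genes were 12.5% of the 40 NDUF genes tested, beside 13.0% of all 3888 genes tested (504 genes), so in this fit the share of NDUF genes called was near that of all genes. Other fits on all libraries called from 3 of 40 NDUF genes with the column numbers as a replicate block (7.69% of all genes) to 10 of 38 with known models alone (13.6%). Lower calls made up 10% of the NDUF genes and 5.97% of all genes, and higher calls 2.5% and 7.00%. With libraries scaled by their totals alone, 2 NDUF genes were called higher (NDUFA8 and NDUFB5) and 2 lower (NDUFS7 and NDUFAB1). Of all 3888 genes, 361 were called higher and 152 lower in that fit (13.2% called). An unadjusted p under 0.05 was found for 16 of the 40 NDUF genes and for 23.1% of all genes. Without siControl library 3, 18 NDUF genes were called, 15 of them lower, and 25.4% of all genes tested.

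To show what the lower genes look like at their start sites, 130 bases of the RefSeq promoters (GRCh38.p14) are printed for the 4 of them, from 100 bases before the annotated start to 30 bases after it, on the gene's strand. NDUFA7, which was not called, is printed for comparison with NDUFS7. The windows are chr16:23596287-23596416 (minus strand), chr19:14572037-14572166 (minus), chrX:47144673-47144802 (minus), chr19:1383807-1383936 (plus) and chr19:8321346-8321475 (minus). For NDUFS7 and NDUFB11 the RefSeq start lies inside the Gencode gene span. Capitals mark AAGATGGC, the element bound by the transcription factor YY1, or CCGGAAG, an element of ETS factors.
NDUFAB1: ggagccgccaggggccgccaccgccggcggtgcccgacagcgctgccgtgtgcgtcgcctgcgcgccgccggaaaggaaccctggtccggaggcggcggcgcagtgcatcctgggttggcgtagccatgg
NDUFB7: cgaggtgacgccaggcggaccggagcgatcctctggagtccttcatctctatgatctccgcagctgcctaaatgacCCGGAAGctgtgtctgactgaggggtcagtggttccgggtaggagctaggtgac
NDUFB11: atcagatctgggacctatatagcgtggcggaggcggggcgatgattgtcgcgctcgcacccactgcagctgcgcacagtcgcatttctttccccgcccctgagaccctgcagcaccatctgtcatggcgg
NDUFS7: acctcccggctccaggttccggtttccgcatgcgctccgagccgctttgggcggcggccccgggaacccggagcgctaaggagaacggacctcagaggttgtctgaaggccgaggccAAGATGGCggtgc
NDUFA7: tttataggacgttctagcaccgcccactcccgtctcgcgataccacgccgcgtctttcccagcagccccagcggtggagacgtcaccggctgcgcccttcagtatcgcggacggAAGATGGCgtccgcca

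Both strands of the 300-base RefSeq promoters (250 bases before the start to 50 after it) were searched, and 38 of the 46 NDUF genes had a window. AAGATGGC was found in 7 of these genes: NDUFA3, NDUFA6, NDUFA7, NDUFA9, NDUFB8, NDUFS4 and NDUFS7. In all 7 it lay on the sense strand with its first base 11 to 26 bases downstream, counting the start as base 1. Of the 48 windows of NDUF genes 14.6% held it, and over all 35116 windows 2.89% held it on either strand. On the sense strand within the 50 bases after the start, 1.25% of all windows held it, a limit chosen after the positions were seen. CCGGAAG was found in 12.5% of the NDUF windows (6 genes), beside 10.3% of all windows, and the NRF1 element in 14.6% (7 genes), beside 5.78% of all windows. Of the 7 genes with AAGATGGC, NDUFS7 was called lower in siDelta2-4 (log2 fold change -0.65). The 6 not called were at -0.47 (NDUFA6), -0.45 (NDUFA3), -0.29 (NDUFS4), -0.21 (NDUFB8), -0.02 (NDUFA7) and 0.02 (NDUFA9). NDUFAB1 and NDUFB11 held none of these motifs in the searched window. NDUFB5, the only NDUF gene called higher, had no RefSeq window and was not searched. Matches are descriptions of the letters and not of bound factors.

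NDUFS7 (ENSG00000115286, GRCh38 chromosome 19, 1383527 to 1395589, plus strand) encodes the Q module subunit with the iron-sulfur cluster next to ubiquinone. Its level was 185, 206 and 234 CPM in siControl libraries 1 to 3 and 155, 125 and 120 CPM in siDelta2-4 libraries 1 to 3. Every siDelta2-4 library lay below every siControl library. The log2 fold change was -0.65 ± 0.12 (SE, n = 3 per group, adjusted p = 0.00122). Its main annotated model, of 8 exons and 758 bases, was also called (-0.70 ± 0.14, adjusted p = 0.00327), and the 2 other models tested were at -0.66 ± 0.32 and -0.23 ± 0.26 without a call. The split of its reads over models was not found to differ (adjusted p = 0.843).

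Of the other core subunits tested, none passed the test. NDUFS3 was at 0.14 ± 0.23, NDUFS8 at -0.23 ± 0.11, NDUFV1 at -0.18 ± 0.32 and NDUFV2 at 0.20 ± 0.12. These genes of the same electron path therefore had fold changes on both sides of 0, and the 6 core subunits tested had a median log2 fold change of -0.02.

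The accessory NDUFS and NDUFV subunits were not called either. NDUFS5 (chromosome 1, 39026318 to 39034636), with the most counts of this family and a disulfide-rich protein on the intermembrane side, had 535, 573 and 470 CPM in siControl and 520, 455 and 544 CPM in siDelta2-4. The groups overlapped, and the log2 fold change was -0.06 ± 0.10 (adjusted p = 0.779). NDUFS4 (-0.29 ± 0.13), NDUFS6 (-0.17 ± 0.11) and NDUFV3 (-0.29 ± 0.17), all of the N module, had CPM ranges that did not overlap between groups. None of the 7 N module genes tested was called, 6 had a value below 0, and their median was -0.18.

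Among NDUFA genes only NDUFAB1 was called. NDUFAB1 (ENSG00000004779, chromosome 16, 23581014 to 23596316, minus strand) encodes the mitochondrial acyl carrier protein, which serves in mitochondrial fatty acid synthesis as well as in complex I. It had 188, 207 and 187 CPM in siControl and 136, 130 and 127 CPM in siDelta2-4, with a wide gap between the groups. The log2 fold change was -0.57 ± 0.11 (adjusted p = 0.00180). Its 5-exon annotated model of 665 bases, which held 1063 of its 1075 counts, was called as well (-0.54 ± 0.11, adjusted p = 0.00529).

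The remaining 13 NDUFA genes tested ranged from -0.47 (NDUFA6) to 0.35 (NDUFA8). NDUFA6 (chromosome 22, 42085526 to 42090884), an LYR-motif subunit that binds the acyl carrier protein, had 75.1, 61.4 and 51.7 CPM in siControl and 44.9, 47.1 and 43.7 CPM in siDelta2-4. All siDelta2-4 libraries were below all siControl libraries, and its log2 fold change of -0.47 ± 0.18 just missed the threshold (adjusted p = 0.1005). NDUFA6 was called without siControl library 3, at -0.61 (adjusted p = 0.00957), where 25.4% of all genes were called. Without siControl library 1 it was at -0.34 (adjusted p = 0.397), and no other fit with 1 library left out called it. NDUFA8 (chromosome 9, 122144058 to 122159779), a subunit of the intermembrane side, had 82.9, 73.8 and 62.3 CPM in siControl and 96.4, 93.4 and 89.0 CPM in siDelta2-4. It was higher in each siDelta2-4 library (log2 fold change 0.35 ± 0.15, adjusted p = 0.142). NDUFA2 (chromosome 5, 140638740 to 140647771), a thioredoxin-fold subunit of the N module, had 305, 355 and 308 CPM in siControl and 283, 249 and 287 CPM in siDelta2-4. Its groups did not overlap, and the log2 fold change was -0.24 ± 0.10 (adjusted p = 0.143), or -0.30 and called without siControl library 3 (adjusted p = 0.0293). Without siControl library 1 it was -0.30 and not called (adjusted p = 0.107). NDUFA2 was also the only NDUF gene with an unadjusted p under 0.05 for transcript usage (adjusted p = 0.401). NDUFA4 (chromosome 7, 10931943 to 10940153), the most counted NDUF gene, had 1449, 1399 and 1193 CPM in siControl and 1505, 1311 and 1393 CPM in siDelta2-4. These overlapped, and its log2 fold change was 0.06 ± 0.09 (adjusted p = 0.739).

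The NDUFB genes, whose products sit in the distal membrane arm, gave calls in both directions. NDUFB5 (ENSG00000136521, chromosome 3, 179604690 to 179627647, plus strand), a single-pass membrane subunit, had 111, 116 and 108 CPM in siControl and 154, 154 and 167 CPM in siDelta2-4. Every siDelta2-4 library was above every siControl library, and the log2 fold change was 0.50 ± 0.12 (adjusted p = 0.00687). With a trend on length removed from each library it was 0.33 (adjusted p = 0.0797). Its 6-exon model of 4199 bases was called (0.53 ± 0.13, adjusted p = 0.0209) and its 4-exon model of 4046 bases had 0.43 ± 0.26 (adjusted p = 0.416). NDUFB5 was thus the only NDUF gene called higher, and its counted models were long beside the median of 787 bases for NDUF genes.

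NDUFB11 (ENSG00000147123, chromosome X, 47142071 to 47145466, minus strand), a membrane subunit mutated in X-linked disease, had 196, 227 and 196 CPM in siControl and 168, 160 and 160 CPM in siDelta2-4. The groups did not overlap, and the log2 fold change was -0.35 ± 0.11 (adjusted p = 0.0518). Its models of 586 and 1525 bases were at -0.30 ± 0.12 and -0.40 ± 0.18, and neither was called. NDUFB7 (ENSG00000099795, chromosome 19, 14566078 to 14572066, minus strand), a disulfide-bonded subunit of the intermembrane side, had 108, 79.6 and 71.8 CPM in siControl and 61.8, 71.5 and 52.9 CPM in siDelta2-4. Here the lowest siControl and the highest siDelta2-4 library nearly met. The log2 fold change was -0.48 ± 0.17 (adjusted p = 0.0770). Both calls were lost when 1 library was left out in several ways: the adjusted p reached 0.259 for NDUFB11 (without siControl library 2) and 0.403 for NDUFB7 (without siControl library 1, where its log2 fold change was -0.31). Only NDUFS7, NDUFAB1 and NDUFB5 were called in each of the 6 fits with 1 library left out.

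Of the 8 NDUFB genes not called, the lowest were NDUFB2 and NDUFB4. NDUFB4 (chromosome 3, 120596328 to 120602507), an accessory membrane subunit, had 483, 448 and 408 CPM in siControl and 386, 369 and 376 CPM in siDelta2-4. NDUFB2 (chromosome 7, 140690777 to 140722790), a small membrane subunit, had 392, 366 and 330 CPM in siControl and 323, 312 and 280 CPM in siDelta2-4. Neither gene overlapped between groups, and the log2 fold changes were -0.24 ± 0.09 (adjusted p = 0.106) for NDUFB4 and -0.25 ± 0.10 (adjusted p = 0.121) for NDUFB2. Both were called without siControl library 3, NDUFB4 at -0.33 (adjusted p = 0.00629) and NDUFB2 at -0.34 (adjusted p = 0.00865). Without siControl library 1 neither was called, with NDUFB4 at -0.20 (adjusted p = 0.299) and NDUFB2 at -0.21 (adjusted p = 0.297). NDUFB9, an LYR-motif subunit with the most counts of the family, had 473, 459 and 409 CPM in siControl and 447, 399 and 452 CPM in siDelta2-4. It overlapped between groups, and its fold change on the log2 scale was -0.05 ± 0.09 (adjusted p = 0.812).

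Neither NDUFC gene nor any assembly factor was called. NDUFC2 (chromosome 11, 78068297 to 78079862), a subunit of the proximal membrane arm, had 702, 726 and 580 CPM in siControl and 600, 531 and 595 CPM in siDelta2-4. The overlap came from siControl library 3, and the log2 fold change was -0.22 ± 0.09 (adjusted p = 0.151). Without siControl library 3 it was -0.33 (adjusted p = 0.00217), and without siControl library 1 it was -0.20 and not called (adjusted p = 0.265). NDUFC1 was at -0.21 ± 0.12. NDUFAF3 (chromosome 3, 49020459 to 49023495), a factor of early Q module assembly, had 188, 196 and 193 CPM in siControl and 182, 163 and 179 CPM in siDelta2-4. These groups did not overlap, but the log2 fold change was -0.14 ± 0.11 (adjusted p = 0.459). Its assembly partner NDUFAF4 was at -0.22 ± 0.14, and NDUFAF2, which acts late in assembly, at 0.20 ± 0.15.

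**Figure D2:**
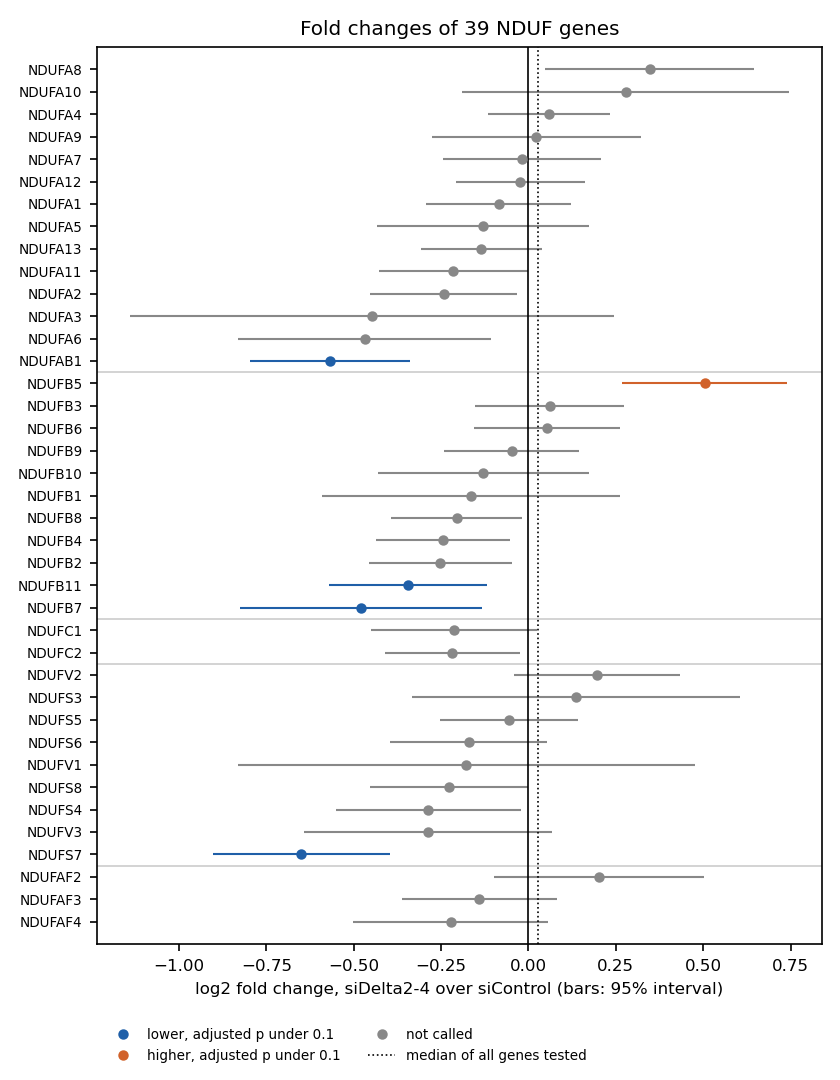
Log2 fold change of siDelta2-4 over siControl for 39 of the 40 NDUF genes tested, with 95% intervals, grouped by family, with the solid line at 0 and the dotted line at the median of all genes tested (0.03). The 4 genes called lower are in blue, NDUFB5 (called higher) in orange, and 29 of the 39 points lie below 0.

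Over the 40 NDUF genes the median log2 fold change was -0.15, beside 0.03 over all genes tested, and 29 of the 40 were below 0, beside 1794 of 3888. A similar share was below 0 among the nuclear subunits of complexes II to V, 25 of 36 tested, with a median of -0.07. CPM did not overlap between groups for 20 NDUF genes (50%), 16 lower and 4 higher, beside 26.0% of all genes tested. In complexes II to V this held for 7 of the 36. The family medians were close together: -0.11 for 14 NDUFA genes, -0.16 for 11 NDUFB genes, -0.21 for 2 NDUFC genes, -0.17 for 10 NDUFS or NDUFV genes and -0.14 for 3 NDUFAF genes. Differences between families were not tested. By place in the enzyme, the median was -0.18 in the N module, -0.13 in the Q module and -0.14 in the proximal membrane arm. NDUFA4, NDUFA6, NDUFA7, NDUFA9 and NDUFAB1 were placed in none of these parts, nor in the distal arm. For the 35 genes not called, the 95% interval lay within 1.5-fold in either direction for 26 and reached past 2-fold for 2, NDUFA3 among them. When libraries were scaled by their totals alone, the median of the NDUF genes moved to -0.08 and that of all genes to 0.09. Without siControl library 3 the NDUF median was -0.21.

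The mitochondrially encoded subunits of the same complex were also measured. Of 7 such genes 6 were tested, and all had a value above 0, beside 2094 of the 3888 genes tested. Of the 6, 4 were called higher (66.7%, beside 7.00% of all genes): MT-ND1 (0.49 ± 0.11, adjusted p = 0.00518), MT-ND2 (0.44 ± 0.12, adjusted p = 0.0214), MT-ND5 (0.45 ± 0.16, adjusted p = 0.0811) and MT-ND4 (0.29 ± 0.10, adjusted p = 0.0634). MT-ND1, a subunit next to the ubiquinone site, had 213, 214 and 187 CPM in siControl and 301, 256 and 302 CPM in siDelta2-4. The remaining gene, MT-ND6, which is read from the other strand of the mitochondrial genome, was below the filter with 5, 4 and 5 counts against 0, 0 and 2. The median over the 6 genes was 0.43, beside -0.15 for the nuclear NDUF genes, and the difference between these sets was not tested.

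Of 14 complex I assembly factors without an NDUF symbol that were counted, 7 were tested and 0 were called (edgeR quasi-likelihood test, 1 at an unadjusted p under 0.05), with a median of 0.18. Of the nuclear subunits of complexes II to V, 36 were tested, 1 was called higher and 4 lower (13.9% called, near the 13.0% of all genes), with a median of -0.07. The higher one was ATP5PB, a stalk subunit of ATP synthase (0.51 ± 0.13). The lower ones were ATP5MC1 (-0.45 ± 0.09) and ATP5F1E (-0.27 ± 0.09) of ATP synthase, COX6A1 of cytochrome oxidase (-0.36 ± 0.09) and UQCR11 of complex III (-0.28 ± 0.10).

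**Figure D3:**
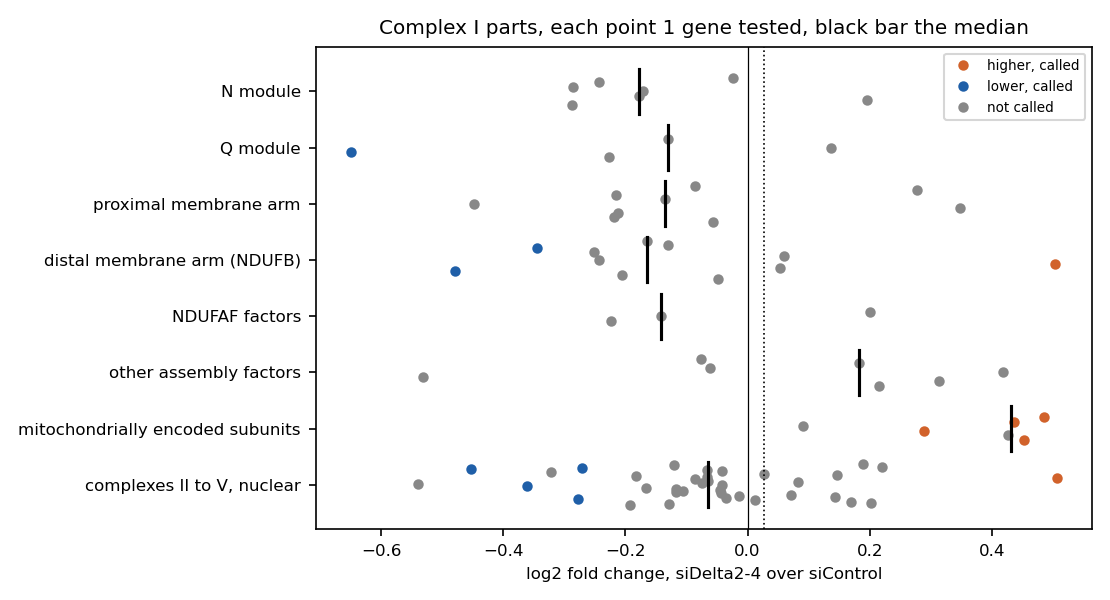
Log2 fold change of siDelta2-4 over siControl (x axis) by part of complex I, each point 1 gene and each black bar the median of all genes tested in that part. The dotted line is the median of all genes (0.03). NDUFA4, NDUFA6, NDUFA7, NDUFA9 and NDUFAB1 were in none of these parts, and 1 other NDUF gene tested is not shown. Medians of the NDUF groups lie between -0.18 and -0.13, that of the mitochondrially encoded subunits at 0.43.

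Fold changes went with transcript length over the whole table, and this touches the NDUF result. The Spearman correlation of log2 fold change with the mean length of the counted models was 0.33 over 3888 genes and 0.23 over the 40 NDUF genes, which share the same libraries. NDUF transcripts were short, with a median of 787 bases beside 1143 over all genes tested. In models under 600 bases the median log2 fold change was -0.16 for 11 NDUF genes and -0.13 for all 492 genes. Between 600 and 1000 bases it was -0.21 for 17 NDUF genes and -0.06 for all 1103 genes. Between 1000 and 2000 bases the values were -0.06 for 4 NDUF genes and 0.14 for all 1660, and above 2000 bases -0.05 for 8 and 0.16 for all 633. In each length class the NDUF median was thus below that of all genes, and the gap was smallest in the shortest class. With a trend on length removed from each library, the median of the NDUF genes was -0.11 and that of all genes -0.01. In that fit 9 of the 40 NDUF genes were called, beside 12.1% of all genes tested. The part of length in the NDUF result was not tested.

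**Figure D4:**
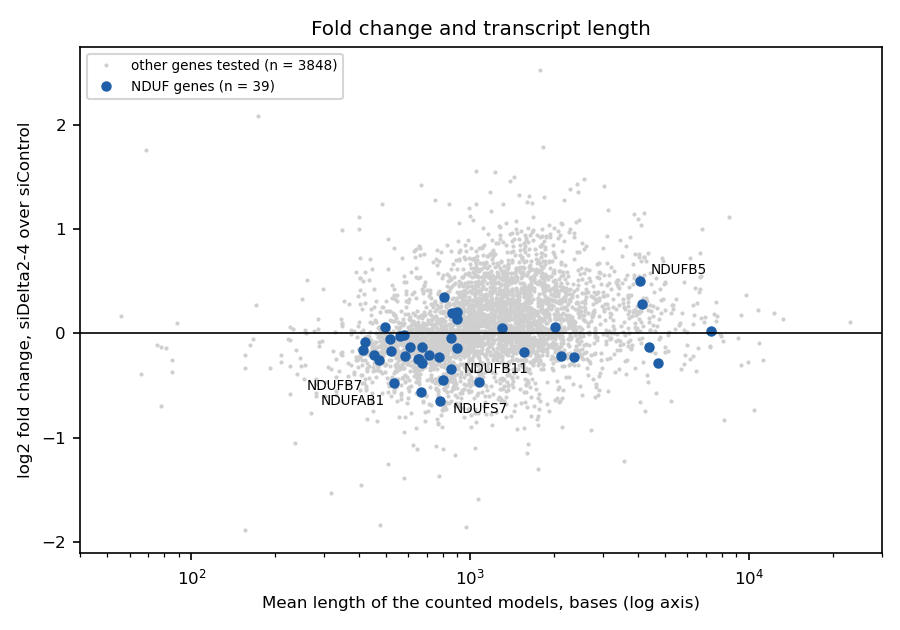
Log2 fold change of siDelta2-4 over siControl against the mean length of the counted models in bases (log axis), with 39 of the 40 NDUF genes in blue over the other genes tested in grey. Most NDUF genes lie below 0 at lengths under 1000 bases, NDUFB5 lies among the longest, and 1 unannotated gene whose length is given as 1 base is off the axis.

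Some NDUF genes lie across from an annotated gene on the other strand whose counts nearly equalled their own. NDUFS7 had 1125 counts and the lncRNA gene ENSG00000280486 (chromosome 19, 1385473 to 1389665, minus strand) 1146, mostly on unannotated models of 8 and 7 exons. The partner was called too, at -0.59 ± 0.14 (adjusted p = 0.00763). NDUFB5 had 920 counts and ENSG00000239096, a snoRNA gene inside an NDUFB5 intron on the minus strand, 914, mostly on an unannotated model of 6 exons and 1058 bases. This partner was called at 0.37 ± 0.12 (adjusted p = 0.0525). In both cases the partner moved the way the NDUF gene did.

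The same near-equality was seen for genes that were not called. NDUFC2 had 4154 counts and THRSP 3972, with log2 fold changes of -0.22 and -0.23. NDUFB6 had 2204 and SMIM27 2118, with 0.05 and 0.00. NDUFB2 had 2223 and NDUFB2-AS1 1951, with -0.25 and -0.30, and the antisense gene passed the threshold (adjusted p = 0.0731). NDUFA7 differed from these, with 1550 counts beside 345 for RPS28, a ribosomal protein gene, and with -0.02 beside -0.56 (adjusted p = 0.0657). Which strand the reads of a pair came from was not tested, and the values of NDUFS7, NDUFB5, NDUFC2, NDUFB6 and NDUFB2 are uncertain to that extent. NDUFA7 also shares its strand with ENSG00000167774 (501 counts) and NDUFS3 with PTPMT1 (118 counts), so reads there may be split. Pseudogenes outside the rule held few counts, 109 for NDUFA4P1 and at most 21 for each of the others.

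**Figure D5:**
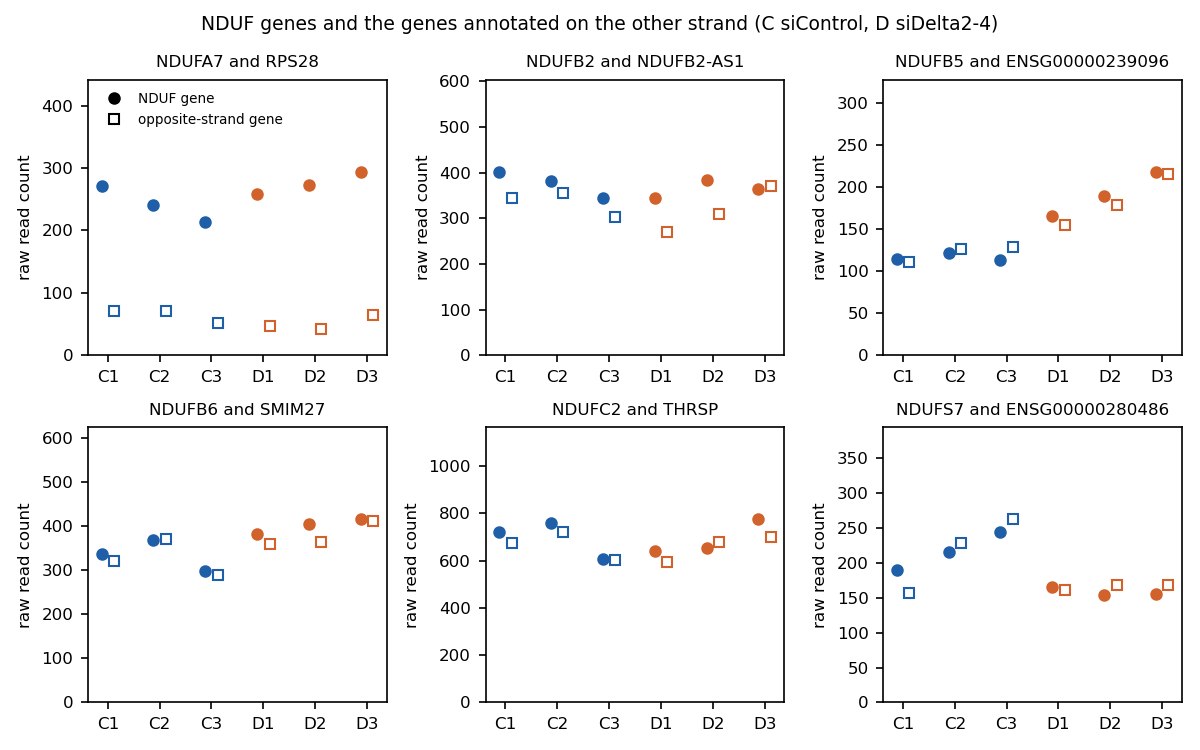
Raw read counts in the 6 libraries (C1 to C3 siControl, D1 to D3 siDelta2-4) for 6 NDUF genes (filled circles) and the gene annotated on the other strand (open squares), each axis starting at 0. Circles and squares mostly lie near each other, with wider gaps in some libraries, as for NDUFB2 and NDUFB2-AS1 in D1 (345 and 269 counts). They lie far apart for NDUFA7 and RPS28, where the NDUF gene has 213 to 294 counts and RPS28 42 to 71.

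At the level of transcript models, 63 NDUF models were tested and 3 called, the main models of NDUFS7, NDUFAB1 and NDUFB5, which is 4.76% beside 6.91% of all 6768 models tested. Without siControl library 3, 11 NDUF models were called. The share of all models called there is not given here, and 25.4% of all genes were called without that library. Transcript usage was tested for 18 NDUF genes and called for 0 (edgeR's diffSpliceDGE, 1 at an unadjusted p under 0.05), beside 0.618% of 1132 genes. Among the genes with several models, the 2 main NDUFS5 models of 544 and 495 bases were at 0.02 ± 0.11 and -0.07 ± 0.11, and the NDUFB9 models of 691 and 1423 bases at -0.03 ± 0.09 and 0.04 ± 0.14. A change of model use was not detectable for NDUF genes at this depth.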

How the data were processed

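Long-read cDNA (ONT PCR-cDNA kit) from 3 siControl and 3 siDelta2-4 libraries of Calu-6 cells was sequenced on 1 flow cell. The authors deposited raw counts of reads per transcript model, not normalised: reads were aligned to GRCh38.p14 with minimap2 2.14 (SAMtools 1.13, per the labels), corrected with TranscriptClean and annotated with TALON against Gencode 44, and unannotated models were kept where 3 samples each had 5 or more reads. Columns were matched to groups by the siRNA in their names.

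Counts were summed per gene over 21472 models and compared between groups in edgeR 4.0.16, run under R 4.3.3 (low-count filter filterByExpr, TMM, estimateDisp, glmQLFit, two-sided glmQLFTest, no covariate), with Benjamini-Hochberg adjustment over all 3888 genes tested and calls at an adjusted p under 0.1. Models and transcript usage were tested likewise, the latter with diffSpliceDGE. CPM values are on TMM-scaled totals. The scripts were tested on simulated data. All 46 genes matched Gencode 44 by identifier, and promoters came from RefSeq.

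Values per library were given for genes called, the 6 genes with the smallest p among those not called and not overlapping, and the most counted gene of each family. Of these, 1 gene is not reported here, in the text or the figures, though it counts in every total. Of the other respiratory genes only called ones were named, apart from MT-ND6 and the opposite-strand genes, which were chosen after their values were seen. The members and lists were chosen with earlier results of these data known. Alternatives were DESeq2 1.42.0, other scalings and filters, a length trend removed (loess span 0.4), known models alone, a block on the column number and each library left out.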

Additional observations from a re-analysis of the deposited data

How the results depend on the processing

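Of all genes 504 were called. The count was 254 with the DESeq2 Wald test, 252 with known transcript models alone, 299 with column numbers as a replicate block, and 194 to 1041 with 1 library left out, the highest without siControl library 3. Shares of all genes tested that were called in the same fit follow in brackets. NDUF genes called were 5 in the reported fit (13.0%), 8 with DESeq2 size factors (13.2%) and 9 with a length trend removed (12.1%). With library totals alone there were 4, 2 higher and 2 lower (13.2%). Known models alone gave 10 of 38 tested (13.6%), and the replicate block 3 (7.69%). With 1 library left out there were 3 to 18 (4.85% to 25.4%), and at an adjusted p under 0.05 there were 3. NDUF models called ranged from 2 to 11 with 1 library left out, against 3 reported. NDUFS7, NDUFAB1 and NDUFB5 were called in each of these gene fits at an adjusted p under 0.1. The column numbers did not pair the libraries (correlations of deviations 0.0381, -0.127 and -0.0783), so the block shares only a number.

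With library totals alone, 361 genes were called higher and 152 lower, against 272 and 232 in the reported fit, and the median log2 fold change moved to -0.084 over NDUF genes and to -0.036 over NDUFA genes. Values near 0 changed sign: NDUFB9 to 0.021 and NDUFS5 to 0.012 with library totals, and NDUFA4 to -0.12, NDUFB9 to 0.0019 and NDUFS5 to 0.057 with the length trend removed. With 1 library left out, NDUFA4 ranged from -0.045 to 0.105, NDUFB9 from -0.13 to 0.0076 and NDUFS5 from -0.15 to 0.016, and the median over NDUF genes from -0.21 to -0.12. The causes were not tested. The 6 genes below the filter gave no test.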
